A study of Mus musculus with 6 samples.

Results

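Transcripts of 42 genes of the lysosome were followed in 6 libraries from clones of 4T1, a BALB/c mouse line of mammary carcinoma that can metastasise to distant organs. The genes were chosen by name: 18 acid hydrolases, 2 soluble proteins that are not enzymes, 7 proteins of the lysosomal membrane and 15 genes of the proton pump. All 42 were found among the 19179 genes listed. The lysosome is an acidic, membrane-bound compartment in which soluble hydrolases break down lipids, glycans and proteins delivered by endocytosis and autophagy. Its acidity is made by the vacuolar proton ATPase, in which a cytosolic V1 sector burns ATP to turn a membrane ring of the V0 sector that carries protons inward. Many of these genes are known targets of TFEB, TFE3 and MITF, transcription factors that bind the palindrome CACGTG within a longer element named CLEAR.

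One kind of clone carries the tissue label breast cancer stem cell (here stem-labelled, 3 libraries), and the clones they were set against are labelled breast cancer cell (here other, 3 libraries). Both kinds grew for 14 days from wells seeded with 1 cell, neither received a treatment named in the labels, and 10 clones of each kind were picked, with batches from 3 independent experiments. How a clone was assigned to its kind, and whether a library pools clones, is not stated. Levels are RPKM, reads per kilobase of gene length, scaled to the authors' library total, and a change is the difference in mean log2(RPKM + 1), stem-labelled minus other, with its SE. A gene was called changed at an adjusted p under 0.05 (limma, Benjamini-Hochberg over 10097 genes tested). In bulk RNA a lower level per cell and fewer cells carrying a transcript cannot be told apart.

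Reads in genes numbered 21196572 to 22838870 per stem-labelled library and 15357608 to 16830762 per other library. These were 0.658 to 0.757 of the library total that the deposited unit implies in stem-labelled and 1.23 to 1.53 in other clones, so the scale of the 2 groups is not settled by the files. On rescaling to reads summed over genes, the median change of all genes moved to 0.87, against 0.11 as deposited, and changes are best read against those medians. Of 7 epithelial markers tested 1 rose and 4 fell, with a sum of 931 to 1434 RPKM in the stem-labelled and 2287 to 3822 RPKM in the other clones. Cdh1 rose, with 59.8 to 77.8 RPKM in stem-labelled and 13.7 to 17.5 RPKM in other clones. Cldn4, Krt7, Krt14 and Krt18 fell. Cldn4 had 4.41 to 11.5 RPKM in stem-labelled and 125 to 245 RPKM in other clones. For Krt7 the ranges were 14.5 to 63.3 RPKM and 180 to 241 RPKM, and for Krt14 0.0399 to 0.394 RPKM and 6.44 to 59.4 RPKM. Krt8 and Epcam did not pass, and Epcam stood at 50.2 to 59.8 RPKM in stem-labelled and 53.5 to 58.5 RPKM in other clones. Of 15 macrophage markers 10 were listed, each under 1 RPKM in every library and together 0.310 to 0.471 RPKM in stem-labelled and 0.388 to 0.822 RPKM in other clones. Of 10 fibroblast markers 6 were listed and only Pdgfra reached 1 RPKM, with a sum over the list of 1.68 to 3.38 RPKM in stem-labelled and 0.448 to 1.02 RPKM in other clones. The part of these markers in the results was not tested.

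Most hydrolases and most membrane proteins of the lysosome were more abundant in the stem-labelled clones. Of the tested proton pump subunits 41.7% rose and 25.0% fell, and the share that fell was near the 25.4% of all tested genes. Of the 42 genes 41 passed the filter on low values, and 24 of these rose, 4 fell and 13 did not pass the test. Of all 10097 tested genes 29.9% rose and 25.4% fell. The median change of the 41 genes was 0.88, against 0.11 for all tested genes. With each library corrected for the length and GC content of genes 25 rose and 5 fell, where 25.9% and 22.0% of all genes did, with a median of 0.94 against 0.07. On rescaling to summed reads 34 rose and 2 fell, where 60.0% and 11.8% of all genes did, with a median of 1.72 against 0.87. The 3 libraries of a group lay wholly above those of the other group for 25 of the 41 genes in the stem-labelled and for 4 in the other clones, with 35.7% and 27.8% over all tested genes.

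**Figure D1:**
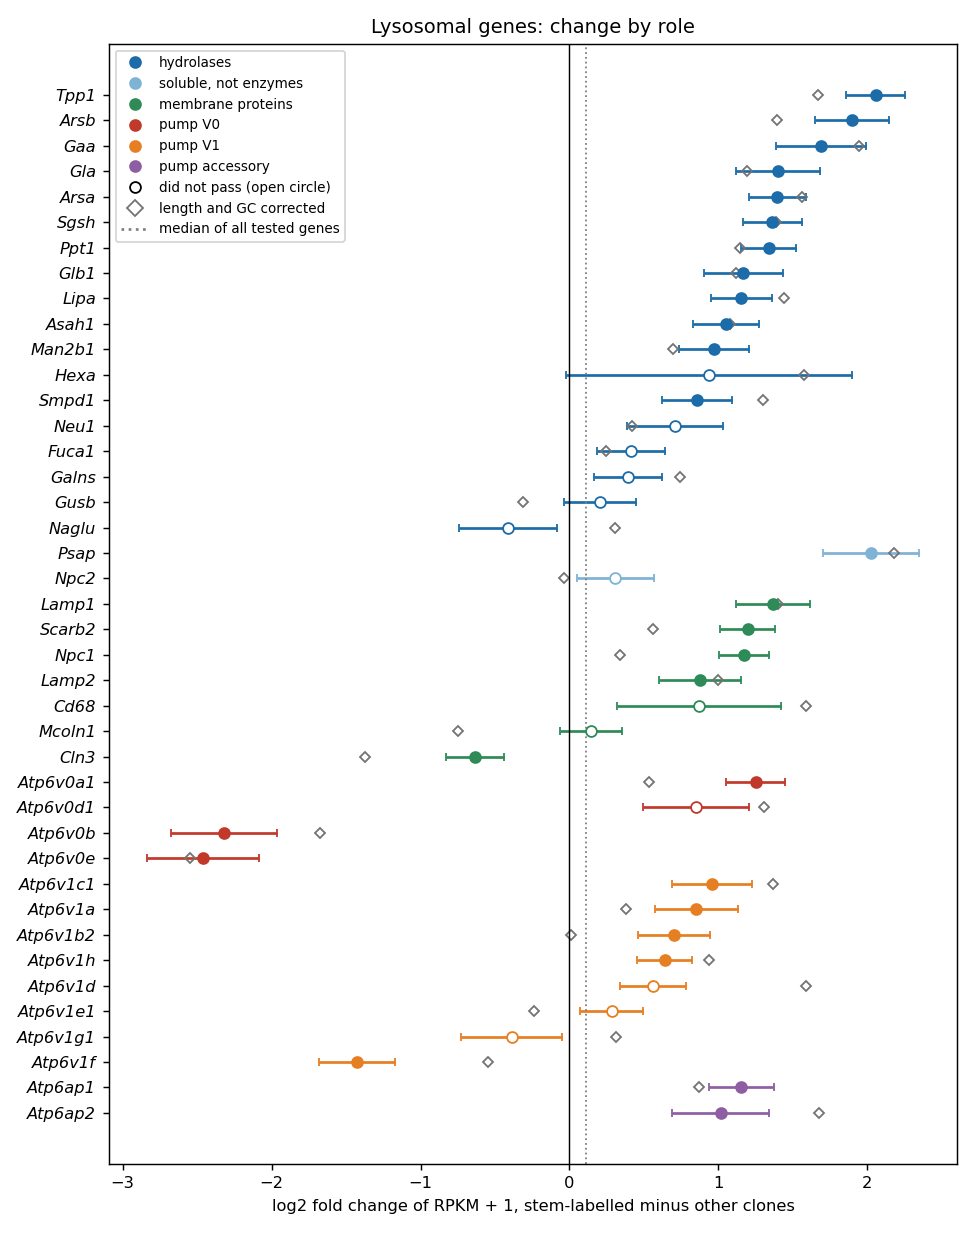
Log2 fold change of RPKM + 1 (stem-labelled minus other clones, horizontal axis) for the 41 tested genes, ordered within each role, with bars for the SE, filled circles for genes past the threshold and open grey diamonds for the length and GC corrected change. The hydrolases run from -0.41 to 2.06, while Atp6v0b, Atp6v0e and Atp6v1f lie well to the left of 0.

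Promoters are shown for 3 genes that rose (Lamp1, Arsa and Gla) and for 2 that fell (Atp6v0b and Atp6v0e), because the same CACGTG letters stand in both kinds. Each runs from 250 bases before to 50 bases after the RefSeq start on GRCm38.p6, 5′ to 3′ on the gene's strand, and capitals mark CACGTG and, where present, its longer form TCACGTGA. The windows are chr8:13158911-13159210 (plus strand), chr15:89477375-89477674 (minus), chrX:134600956-134601255 (minus), chr4:117887280-117887579 (minus) and chr17:26676146-26676445 (plus).
Lamp1: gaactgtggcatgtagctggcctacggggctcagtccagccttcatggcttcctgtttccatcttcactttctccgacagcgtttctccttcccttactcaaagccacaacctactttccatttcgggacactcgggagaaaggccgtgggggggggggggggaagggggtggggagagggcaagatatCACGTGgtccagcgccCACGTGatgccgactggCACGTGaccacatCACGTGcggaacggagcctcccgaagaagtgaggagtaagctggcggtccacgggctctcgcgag
Arsa: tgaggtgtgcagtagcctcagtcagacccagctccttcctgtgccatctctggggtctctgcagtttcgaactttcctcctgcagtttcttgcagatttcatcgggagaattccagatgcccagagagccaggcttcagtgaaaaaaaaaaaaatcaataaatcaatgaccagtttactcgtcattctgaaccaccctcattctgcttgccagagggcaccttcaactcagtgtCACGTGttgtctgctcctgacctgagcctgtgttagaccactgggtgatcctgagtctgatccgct
Gla: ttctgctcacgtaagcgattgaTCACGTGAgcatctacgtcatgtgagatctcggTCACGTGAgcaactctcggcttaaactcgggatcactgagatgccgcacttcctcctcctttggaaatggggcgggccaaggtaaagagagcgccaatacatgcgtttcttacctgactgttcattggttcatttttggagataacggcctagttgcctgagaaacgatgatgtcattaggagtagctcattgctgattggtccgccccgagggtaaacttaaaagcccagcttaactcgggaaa
Atp6v0b: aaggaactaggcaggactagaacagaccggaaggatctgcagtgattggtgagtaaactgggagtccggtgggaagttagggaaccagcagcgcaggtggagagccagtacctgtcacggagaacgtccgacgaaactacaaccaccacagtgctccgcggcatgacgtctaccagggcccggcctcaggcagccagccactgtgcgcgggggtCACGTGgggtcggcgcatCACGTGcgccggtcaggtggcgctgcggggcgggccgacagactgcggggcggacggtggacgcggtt
Atp6v0e: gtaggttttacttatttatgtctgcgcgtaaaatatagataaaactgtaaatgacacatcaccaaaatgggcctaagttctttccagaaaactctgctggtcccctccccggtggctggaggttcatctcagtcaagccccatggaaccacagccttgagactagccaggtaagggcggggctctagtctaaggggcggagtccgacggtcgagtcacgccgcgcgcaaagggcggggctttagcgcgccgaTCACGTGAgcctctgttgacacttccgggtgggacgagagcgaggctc
The Lamp1 window holds the letters 4 times within 52 bases. RefSeq windows matched 35 of the 42 genes by symbol, and 13 of these (37.1%) held CACGTG in at least 1 window, a palindrome that reads alike on both strands, where 8.09% of all 27025 genes with a window did. The longer TCACGTGA, which contains it, was in 6 of the 35 (17.1%) and in 1.12% of all genes. Genes with and without the letters went both ways. Of the 13 with it 7 rose and 3 fell, and of the 22 without it 12 rose and 1 fell, with a median change of those tested of 0.85 and 0.94. Of all tested genes 29.9% rose and 25.4% fell, with a median of 0.11.

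Of the 18 hydrolases 12 were called higher and 0 lower, with a median of 1.10 that was 1.17 after the correction and 1.93 on rescaling. By limma 0 were lower at an unadjusted p under 0.05 as well, and limma-voom called 0 lower. On rescaling 16 were called higher, with Hexa and Naglu the exceptions, where 60.0% of all tested genes were called higher. The genes were 1865 to 4783 bases long, and of the 4498 tested genes in that range 25.8% rose and 24.4% fell. Tpp1 (ENSMUSG00000030894, chromosome 7, 105744847 to 105752207), a peptidase that trims tripeptides from protein ends and is lost in a childhood neuronal ceroid lipofuscinosis, had 16.6, 19.1 and 20.0 RPKM in stem-labelled clones, against 4.39, 3.40 and 3.33 RPKM in other clones. The groups were far apart and each was tight, and the change was 2.06 ± 0.20 (adjusted p = 0.000131). Ppt1, a thioesterase that removes palmitate from proteins, averaged 16.5 ± 1.66 RPKM in stem-labelled and 5.89 ± 0.0505 RPKM in other clones (SD, n = 3 each), a change of 1.34 ± 0.19.

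Of 6 hydrolases that act on sphingolipids 5 rose and Hexa did not pass, where 29.9% of all tested genes rose. Gla, the alpha-galactosidase that is missing in Fabry disease, had 5.10, 10.8 and 5.58 RPKM in stem-labelled clones, against 1.62, 2.68 and 1.67 RPKM in other clones. Replicate 2 was the highest of both groups, the groups did not overlap, and the change was 1.40 ± 0.28 (adjusted p = 0.00256). Arsa, the sulfatase that degrades the myelin lipid sulfatide, had 16.9, 19.2 and 14.5 RPKM in stem-labelled clones, against 5.97, 5.63 and 5.61 RPKM in other clones, a change of 1.40 ± 0.19 (adjusted p = 0.000425). It shares 690 exon bases with C230037L18Rik on the opposite strand, and whether counting used strand is not stated. The beta-galactosidase Glb1 averaged 18.4 ± 1.71 RPKM in stem-labelled and 7.94 ± 3.00 RPKM in other clones (SD, n = 3 each), a change of 1.17 ± 0.27. The ceramidase Asah1 averaged 34.5 ± 6.21 RPKM in stem-labelled and 16.0 ± 1.77 RPKM in other clones (1.05 ± 0.22). The sphingomyelinase Smpd1 averaged 16.0 ± 4.26 RPKM in stem-labelled and 8.15 ± 0.557 RPKM in other clones (0.86 ± 0.24). The Smpd1 call missed the threshold without stem-labelled replicate 1 or 2 (adjusted p = 0.0511 and 0.0575).

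Hexa, the alpha chain of hexosaminidase A that is lost in Tay-Sachs disease, was 1 of 6 hydrolases that did not pass and is singled out here after its values were seen. It had 0.0188, 27.7 and 3.43 RPKM in stem-labelled replicates 1 to 3, which rest on 1, 1568 and 206 reads. The other clones had 0.585, 1.85 and 3.09 RPKM, or 13, 43 and 58 reads. The stem-labelled libraries thus spanned from near absence to the highest level, and they enclosed the others. The change was 0.94 ± 0.96 (adjusted p = 0.429), and it was 2.09 without replicate 1 (adjusted p = 0.0337) but -0.32 without replicate 2 (adjusted p = 0.677). It shares 255 exon bases with Tmem202 on the opposite strand.

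Of 5 enzymes that degrade glycosaminoglycans, the sulfated sugar chains of the cell surface and matrix, 2 rose and 3 did not pass. The share of all tested genes that rose was 29.9%. Arsb, which removes sulfate from dermatan and chondroitin sulfate, had 11.9, 9.73 and 8.79 RPKM in stem-labelled clones, against 2.31, 2.74 and 1.12 RPKM in other clones. That is a change of 1.90 ± 0.25 (adjusted p = 0.000342), and 57.8% of the 50-base stretches of its longest transcript also occur in other genes, among them Gm26527, which shares 1948 exon bases on the opposite strand. Sgsh, the heparan sulfate sulfamidase, had 7.88, 8.33 and 6.73 RPKM in stem-labelled clones and 2.17, 2.95 and 2.0 RPKM in the others (1.36 ± 0.20, adjusted p = 0.000504), and shares 955 exon bases with Card14 on the opposite strand. Naglu, which acts in the same heparan sulfate pathway, averaged 10.5 ± 3.01 RPKM in stem-labelled and 14.9 ± 7.16 RPKM in other clones (-0.41 ± 0.33, adjusted p = 0.312). Gusb, the beta-glucuronidase, averaged 28.2 ± 8.39 RPKM in stem-labelled and 23.7 ± 1.38 RPKM in other clones. Galns, a keratan sulfate sulfatase, averaged 13.6 ± 2.32 RPKM in stem-labelled and 10.1 ± 2.30 RPKM in other clones. The corrected change was 0.30 for Naglu (adjusted p = 0.375), -0.31 for Gusb (adjusted p = 0.261) and 0.74 for Galns (adjusted p = 0.00779), which then passed.

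Gaa, the acid glucosidase that breaks down glycogen, had 43.1, 58.0 and 40.1 RPKM in stem-labelled clones, against 20.6, 13.8 and 8.93 RPKM in other clones. The change was 1.69 ± 0.30 (adjusted p = 0.00143), and Gaa had the highest mean of the 18 hydrolases in the stem-labelled clones. Lipa, the acid lipase that frees cholesterol from lipoprotein esters, rose by 1.15 ± 0.21, to 8.11 ± 1.24 RPKM in stem-labelled clones, against 3.10 ± 0.611 RPKM in the others. Of 3 enzymes of glycoprotein breakdown 1, the alpha-mannosidase Man2b1, rose (0.97 ± 0.23), where 29.9% of all tested genes rose. The sialidase Neu1 and the fucosidase Fuca1 did not pass, with 12.8 ± 3.59 and 11.6 ± 2.56 RPKM in stem-labelled and 7.80 ± 4.02 and 8.36 ± 1.32 RPKM in other clones.

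**Figure D2:**
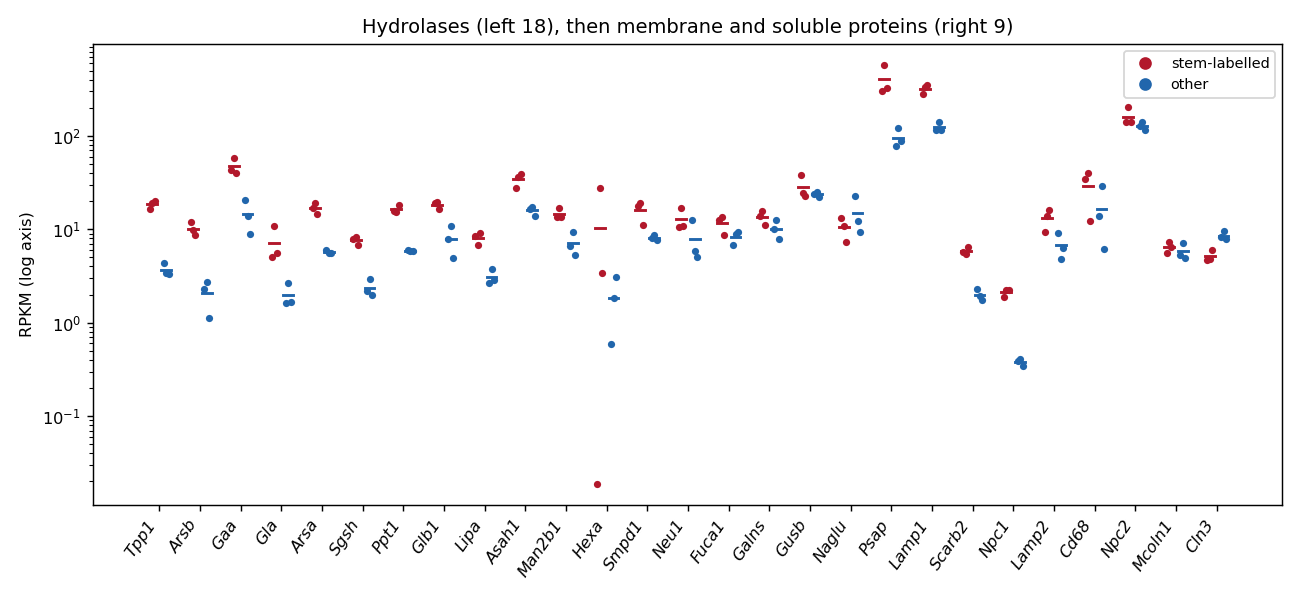
RPKM on a log axis in each library for the 18 hydrolases and the 9 membrane and soluble proteins, each ordered by change, with red points for stem-labelled clones, blue points for other clones and bars for group means. Psap and Lamp1 stand highest in the stem-labelled clones, and the red Hexa points run from 0.0188 to 27.7 RPKM.

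The 2 soluble proteins that are not enzymes differed. Psap (ENSMUSG00000004207, chromosome 10, 60277627 to 60302597), the precursor of the saposins that lift sphingolipids out of membranes for their hydrolases, had 304, 576 and 329 RPKM in stem-labelled clones. In other clones it had 78.8, 120 and 88.0 RPKM. Replicate 2 was the highest library in each group, the groups did not overlap, and the change was 2.02 ± 0.32 (adjusted p = 0.000816). Npc2, which hands cholesterol to Npc1, had 141, 203 and 140 RPKM in stem-labelled clones and 126, 142 and 117 RPKM in the others. Its groups overlapped, and the change was 0.31 ± 0.26 (adjusted p = 0.336).

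Of the 7 membrane proteins 4 rose, 1 fell and 2 did not pass, where 29.9% and 25.4% of all tested genes rose and fell. After the correction 4 rose and 2 fell, where 25.9% and 22.0% of all genes did. On rescaling 6 rose and 0 fell, where 60.0% and 11.8% of all genes did. The median was 0.88 (0.56 after the correction, 1.72 on rescaling), against 0.11 (0.07 and 0.87) for all tested genes. Lamp1 (ENSMUSG00000031447, chromosome 8, 13159135 to 13175338), a heavily glycosylated protein that lines the lysosomal membrane, had 282, 333 and 347 RPKM in stem-labelled clones, against 115, 140 and 116 RPKM in other clones, a change of 1.37 ± 0.25 (adjusted p = 0.00158). It shares 249 exon bases with Grtp1 on the opposite strand. Its relative Lamp2, needed for the fusion of autophagosomes with lysosomes, stood at a far lower level than Lamp1, with 9.30, 14.1 and 16.2 RPKM in stem-labelled and 9.16, 4.80 and 6.33 RPKM in other clones (0.88 ± 0.28, adjusted p = 0.0228). The Lamp2 groups nearly touched, and the call was lost without replicate 2 or 3 of the stem-labelled or replicate 2 of the other clones (adjusted p = 0.0720, 0.0886 and 0.0679). Scarb2, the receptor that carries glucocerebrosidase to the lysosome, had 5.75, 5.41 and 6.47 RPKM in stem-labelled and 2.31, 1.94 and 1.75 RPKM in other clones. It rose by 1.20 ± 0.18, which was 0.56 after the correction (adjusted p = 0.0165).

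Npc1, the membrane protein that exports cholesterol, had 1.86, 2.22 and 2.26 RPKM in stem-labelled and 0.391, 0.405 and 0.343 RPKM in other clones. The groups did not overlap, and the change was 1.17 ± 0.17 (adjusted p = 0.000458). These low levels rest on 2070 reads in stem-labelled and 141 reads in other clones, and after the correction the call was lost (0.34, adjusted p = 0.117). Cd68, a lysosomal glycoprotein best known from macrophages, had 34.9, 39.9 and 12.2 RPKM in stem-labelled and 13.8, 29.3 and 6.08 RPKM in other clones. Replicate 3 was the lowest and replicate 2 the highest in both groups, and the change was 0.87 ± 0.55 (adjusted p = 0.203). Without replicate 2 of the other clones Cd68 was called higher (1.40, adjusted p = 0.0431), as it was after the correction (1.59, adjusted p = 0.0332).

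Cln3, a membrane protein lost in juvenile neuronal ceroid lipofuscinosis, fell while the enzymes lost in related diseases, Tpp1 and Ppt1, rose. It had 4.73, 4.80 and 5.99 RPKM in stem-labelled clones, against 8.23, 9.58 and 7.89 RPKM in other clones. The change was -0.63 ± 0.19 (adjusted p = 0.0196), it was -1.37 after the correction, and it turned to 0.18 on rescaling (adjusted p = 0.525). The call was also lost without stem-labelled replicate 1 or 2 (adjusted p = 0.0786 and 0.0750), and the gene shares 442 exon bases with Apobr on the opposite strand. Mcoln1, the calcium channel TRPML1, averaged 6.48 ± 0.903 RPKM in stem-labelled and 5.79 ± 1.17 RPKM in other clones, with changes of 0.15, -0.75 after the correction (adjusted p = 0.00801) and 0.95 on rescaling (adjusted p = 0.00554).

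Subunits of the proton pump went both ways. Of 12 tested subunits of V0 and V1, 5 rose, 3 fell and 4 did not pass, with a median of 0.60 (0.35 after the correction, 1.40 on rescaling). These are shares of 41.7% and 25.0%, where 29.9% and 25.4% of all tested genes rose and fell. In V0, Atp6v0a1, 1 form of the large subunit through which protons pass, had 9.22, 10.3 and 8.24 RPKM in stem-labelled and 3.79, 3.51 and 2.67 RPKM in other clones (1.25 ± 0.20, adjusted p = 0.000793, 0.54 after the correction). Atp6v0b (ENSMUSG00000033379, chromosome 4, 117884326 to 117887333), a proteolipid of the rotating ring, had 31.8, 36.6 and 27.4 RPKM in stem-labelled clones, against 286, 105 and 143 RPKM in other clones. Every stem-labelled library lay under every other library, and the change was -2.32 ± 0.36 (adjusted p = 0.000664), -1.67 after the correction and -1.40 on rescaling. It shares 243 exon bases with Gm12841 on the opposite strand. Its listed length, which the correction used, is 2051 bases, and its longest transcript has 1000 bases. Whether length had a part in its change was not tested.

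Atp6v0e (ENSMUSG00000015575, chromosome 17, 26676396 to 26699644), a small membrane subunit, had 29.5, 31.3 and 21.3 RPKM in stem-labelled clones, against 137, 94.9 and 275 RPKM in other clones. Its change was -2.46 ± 0.37 (adjusted p = 0.000631), -2.55 after the correction and -1.54 on rescaling. Its listed length is 3261 bases and its longest transcript has 2812 bases. Whether length or abundance had a part in its change was not tested. Atp6v0d1, the peripheral subunit that joins the ring to V1, had 35.4, 52.0 and 37.6 RPKM in stem-labelled and 18.2, 40.7 and 14.8 RPKM in other clones. Replicate 2 of the other clones overlapped the stem-labelled range (0.85 ± 0.36, adjusted p = 0.0673), and without it the gene was called higher (1.27, adjusted p = 0.00386). It was also called higher after the correction (1.31, adjusted p = 0.0110) and on rescaling (1.76, adjusted p = 0.00109). Atp6v0c, the main proteolipid of the ring, was listed at 0.508, 0.487 and 0.670 RPKM in stem-labelled and 0.347, 0.570 and 0.499 RPKM in other clones, under the filter. Of its longest transcript 12.2% of 50-base stretches also occur in the pseudogenes Atp6v0c-ps1 and Atp6v0c-ps2, and how such reads were counted is not stated.

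In the V1 sector the catalytic subunit Atp6v1a had 11.4, 14.7 and 22.5 RPKM in stem-labelled and 10.7, 7.86 and 6.54 RPKM in other clones (0.85 ± 0.28, adjusted p = 0.0266). Atp6v1b2, its nucleotide-binding partner, had 15.9, 19.4 and 17.8 RPKM in stem-labelled and 7.96, 14.3 and 10.0 RPKM in other clones (0.70 ± 0.24, adjusted p = 0.0317). Of the 28 calls these 2 were lost in the most alternatives, 8 and 10 of 16. After the correction the changes were 0.38 and 0.01 (adjusted p = 0.173 and 0.973). Atp6v1a was also lost without replicate 2 or 3 of either kind (adjusted p = 0.0560 to 0.0972), and Atp6v1b2 without any library except replicate 2 of the other clones (adjusted p = 0.0554 to 0.104). Atp6v1c1, a stalk subunit, had 31.4, 32.2 and 45.3 RPKM in stem-labelled and 19.6, 23.0 and 12.7 RPKM in other clones (0.96 ± 0.27, adjusted p = 0.0136, lost at 0.0544 without replicate 3 of the stem-labelled clones). Atp6v1h, a regulatory subunit, had 3.96, 4.36 and 3.54 RPKM in stem-labelled and 2.54, 1.90 and 2.11 RPKM in other clones (0.64 ± 0.18, adjusted p = 0.0152, lost at 0.0601 without replicate 2 of the stem-labelled clones).

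Atp6v1f, a small subunit of the rotor, was the 1 V1 gene that fell. It had 90.3, 91.5 and 61.5 RPKM in stem-labelled clones, against 210, 213 and 226 RPKM in other clones (-1.42 ± 0.25, adjusted p = 0.00143). The change was -0.54 after the correction (adjusted p = 0.0347), and on rescaling it was -0.49 and missed the threshold (adjusted p = 0.103). The call was also lost when the correction was combined with the replicate number as a block. At 1063 bases Atp6v1f is the shortest of the 42 genes, and of the 224 tested genes of 1000 to 1200 bases 57.6% fell and 6.7% rose. Of the longest Atp6v1f transcript 12.5% of 50-base stretches also occur in AC169506.3. Atp6v1d, which forms the central shaft, had 30.8, 41.2 and 37.2 RPKM in stem-labelled and 25.3, 20.7 and 27.0 RPKM in other clones, without overlap (0.56 ± 0.22, adjusted p = 0.0534), and it passed after the correction (1.59, adjusted p = 0.000251). The stalk subunits Atp6v1e1 and Atp6v1g1 overlapped between the groups, with 13.1 ± 2.32 and 103 ± 30.1 RPKM in stem-labelled and 10.5 ± 1.20 and 138 ± 54.3 RPKM in other clones. Of the longest Atp6v1g1 transcript 19.2% of 50-base stretches also occur in Gm13453 or Gm12344.

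**Figure D3:**
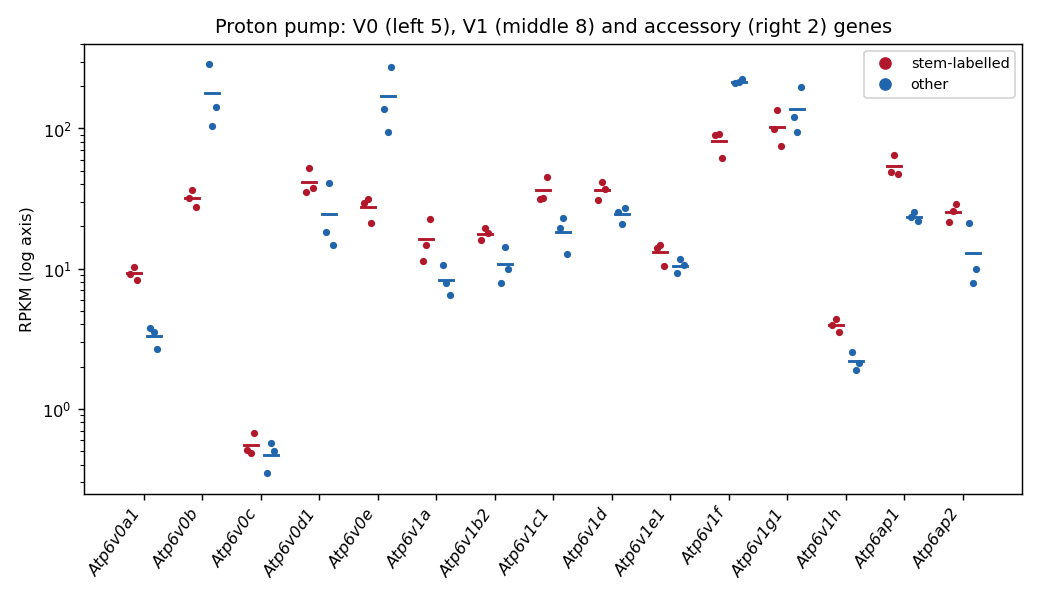
RPKM on a log axis in each library for the 15 proton pump genes, with red points for stem-labelled clones, blue points for other clones and bars for group means. Atp6v0b, Atp6v0e and Atp6v1f have blue points above all red points, most other subunits have red above blue, and Atp6v0c lies between 0.347 and 0.670 RPKM.

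Both accessory genes of the pump rose. Atp6ap1, which helps to assemble V0, had 49.0, 64.6 and 47.7 RPKM in stem-labelled and 23.3, 25.3 and 21.8 RPKM in other clones (1.15 ± 0.22, adjusted p = 0.00190). Atp6ap2, the prorenin receptor, had 21.4, 25.6 and 28.8 RPKM in stem-labelled and 21.0, 7.95 and 9.86 RPKM in other clones (1.02 ± 0.33, adjusted p = 0.0244). Replicate 1 of the other clones came close to the lowest stem-labelled library. The call was lost without replicate 2 or 3 of either kind (adjusted p = 0.0597 to 0.0856).

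Ratios within a library do not depend on the library total. The 18 hydrolases together had 0.719 to 0.726 of the summed RPKM of the 13 pump subunits in stem-labelled clones, against 0.129 to 0.244 in other clones. The pump subunits took 23.0% to 25.9% of the summed RPKM of the 42 genes in stem-labelled clones, against 49.5% to 65.0% in the others. Psap and Lamp1 alone took 37.7% to 43.1% in stem-labelled and 13.6% to 20.5% in other clones. The ratio of hydrolases to pump turned on Atp6v0b, Atp6v0e, Atp6v1f and Atp6v1g1, a set of 4 abundant subunits grouped after their values were seen. They made up 50.3% to 62.1% of the pump sum in stem-labelled and 80.3% to 90.6% in other clones. Against the remaining 9 subunits the hydrolase ratio was 1.46 to 1.91 in stem-labelled and 1.24 to 1.66 in other clones, and the groups overlapped.

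The levels of the 12 tested subunits lay closer together in the stem-labelled clones. The highest stood 21.3 to 31.0 times above the lowest there, against 112 to 130 times in other clones, and the SD of their log2 RPKM was 1.27 to 1.37 in stem-labelled and 2.09 to 2.50 in other clones. Atp6v1h was the lowest of the 12 in every library. Levels compared between genes depend on the listed length, which for Atp6v1h is 9746 bases, where its longest transcript has 4829 bases. As deposited, the abundant subunits Atp6v0b, Atp6v0e and Atp6v1f fell, as did 70.2% of all tested genes with a mean of at least 80 RPKM. The matching spread of other genes is not given here, so the narrower range is not shown to be particular to the pump. The ratio of Lamp1 to Atp6v0b was 8.88 to 12.7 in stem-labelled and 0.400 to 1.34 in other clones.

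**Figure D4:**
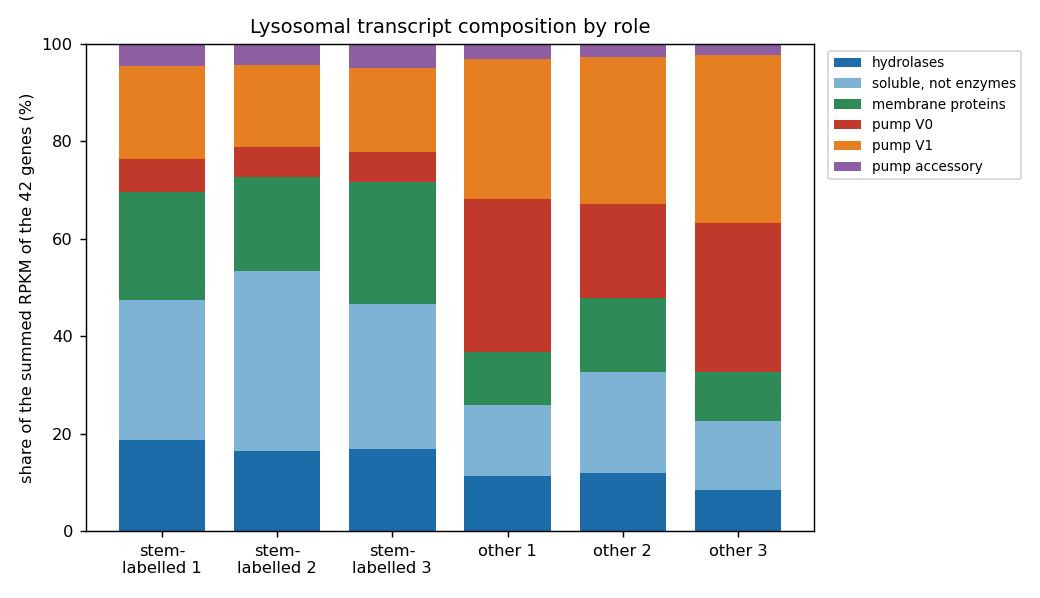
Share of the summed RPKM of the 42 genes taken by each role, in percent, in the 3 stem-labelled libraries (left) and the 3 other libraries (right). The V0 part is 6.03% to 6.85% for stem-labelled clones and 19.2% to 31.5% for other clones.

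As deposited, Psap and Lamp1 rose at a level where most genes fell. Of 810 tested genes with a mean of at least 80 RPKM over the 6 libraries, 34 (4.20%) rose and 569 (70.2%) fell, with a median change of -1.57. The matching shares after the correction and on rescaling are not given here. The lysosomal set has 7 genes at that level. Beside Psap and Lamp1, Atp6v0b, Atp6v0e and Atp6v1f fell, and Npc2 and Atp6v1g1 did not pass. Among the 42 genes replicate 2 was the highest stem-labelled library for 26 and the highest other library for 23. The median coefficient of variation over the 41 genes was 17.5% in stem-labelled and 21.3% in other clones.

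**Figure D5:**
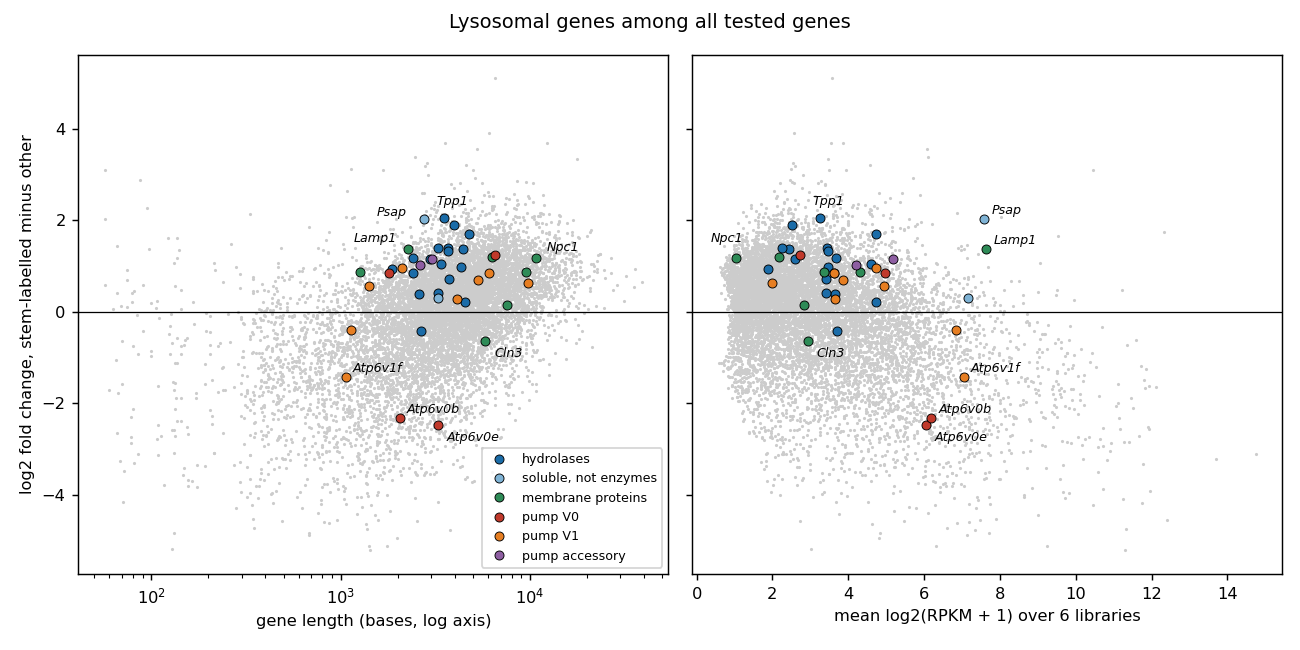
Log2 fold change (stem-labelled minus other, vertical axis) of all 10097 tested genes in grey and of the lysosomal genes in colour, against gene length on a log axis (left) and mean log2(RPKM + 1) (right). Psap and Lamp1 lie above 0 among abundant genes whose grey points mostly lie below it, and Atp6v1f lies within the downward cloud of short genes.

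Genes of the same pathway outside the set were counted from lists, to be read against the 29.9% that rose and 25.4% that fell among all tested genes. Among 26 further lysosomal hydrolases and helpers, 15 rose and 2 fell (median change 0.70). Fuca2, a relative of Fuca1, rose by 1.45 ± 0.18, and the beta-mannosidase Manba had 3.32, 4.18 and 3.21 RPKM in stem-labelled and 0.831, 0.957 and 0.727 RPKM in other clones. The 2 that fell were Hyal2 (-1.63) and Acp5 (-1.25). Only Hyal2 was also called lower after the correction (-1.57) and on rescaling (-0.72). Of 18 further membrane proteins 10 rose and 2 fell (0.63), and after the correction 6 rose and 4 fell (0.24). The cystine exporter Ctns had 5.14, 6.49 and 7.34 RPKM in stem-labelled and 1.39, 1.54 and 0.615 RPKM in other clones. As deposited, the 2 that fell were Mfsd12 (-1.49) and Atp13a2 (-1.21), and neither was called lower on rescaling. Cd63 had 652 to 1047 RPKM in stem-labelled and 1109 to 2041 RPKM in other clones. It did not pass by limma (-0.81, adjusted p = 0.0900) but was called lower by limma-voom (adjusted p = 0.0326).

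Among 9 further pump genes, 2 rose and 5 fell (median -0.78). After the correction limma called 0 higher (2 at an unadjusted p under 0.05) and 3 lower (-0.43). On rescaling it called 4 higher and 0 lower (0 at an unadjusted p under 0.05; -0.12), while limma-voom on the recovered reads called 2 higher and 5 lower. Atp6v0a2, a sister of Atp6v0a1, had 5.86, 5.77 and 6.61 RPKM in stem-labelled and 1.88, 1.98 and 1.99 RPKM in other clones, and its call was lost after the correction (0.43, adjusted p = 0.0513). Tcirg1, a further and more abundant sister, had 21.9, 32.8 and 30.5 RPKM in stem-labelled and 127, 52.9 and 41.2 RPKM in other clones. It was called lower (-1.19, adjusted p = 0.0265), but not after the correction (-0.96, adjusted p = 0.0582) or on rescaling (-0.27, adjusted p = 0.526). The assembly factor Vma21 had 2.0, 1.95 and 2.31 RPKM in stem-labelled and 5.46, 4.21 and 5.34 RPKM in other clones. It missed the threshold on rescaling (-0.24, adjusted p = 0.354). Of 12 genes that sort hydrolases to the lysosome 6 rose, 2 fell and 4 did not pass (0.56), and after the correction 5 rose and 1 fell (0.14). Gnptab, which makes the mannose 6-phosphate tag, had 7.89, 6.20 and 8.36 RPKM in stem-labelled and 2.01, 2.70 and 2.11 RPKM in other clones, and the tag's receptor Igf2r had 6.71, 19.7 and 17.9 RPKM in stem-labelled and 1.23, 1.61 and 2.79 RPKM in other clones. As deposited, the 2 sorting genes that fell were Ap1s1 (-1.60) and Gga1 (-0.75). Only Ap1s1 was also called lower after the correction (-1.03) and on rescaling (-0.66).

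Of 13 tested genes of the Ragulator and mTORC1, the growth kinase complex docked on lysosomes, 6 rose, 3 fell and 4 did not pass (0.44), or 46.2% and 23.1%, where 29.9% and 25.4% of all tested genes did. The 3 that fell were the Ragulator genes Lamtor1 (-1.50), Lamtor2 (-1.73) and Lamtor4 (-2.60), while Lamtor3 rose (1.12) and Lamtor5 did not pass (-0.26). Only Lamtor4 of these was called lower both after the correction (-1.38) and on rescaling (-1.68). Flcn, which with Rragc controls whether TFEB and TFE3 enter the nucleus, had 19.5, 21.1 and 18.5 RPKM in stem-labelled and 3.26, 4.52 and 3.77 RPKM in other clones. Rragc had 15.6, 15.0 and 21.4 RPKM in stem-labelled and 4.70, 4.21 and 3.92 RPKM in other clones. The factors themselves did not pass. The change was -0.49 ± 0.28 for Tfeb and -0.25 ± 0.21 for Tfe3, and both signs turned on rescaling (0.28 and 0.56). After the correction Tfe3 was called lower (-1.17, adjusted p = 0.00148). Mitf, at 0.550, 0.660 and 1.58 RPKM in stem-labelled and 0.474, 0.389 and 0.224 RPKM in other clones, was not tested. Among 7 cathepsins 3 rose and 1 fell (0.65), and after the correction 5 rose and 1 fell (1.31). Ctsb had 141, 158 and 126 RPKM in stem-labelled and 37.7, 45.9 and 28.7 RPKM in other clones, and Ctsw, a cathepsin best known from cytotoxic lymphocytes, had 0.399, 0.241 and 0.555 RPKM in stem-labelled and 15.9, 13.2 and 7.25 RPKM in other clones.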

How the data were processed

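mRNA-seq libraries of 3 stem-labelled and 3 other samples, made from total RNA by a standard Illumina protocol per the labels' protocols, were grouped by the tissue label and numbered by the titles. The authors deposited RPKM, with 1 file per library. The submitters' processing notes name Bowtie2 2.0.6, TopHat2 2.0.9 and mm9 without roles, while 99.7% of gene starts lay within 50 kb of GENCODE M21, so positions are on GRCm38. Counting program and strand are not given in the sources used here, and 11 of the 42 genes share exon bases with a gene on the opposite strand. Every value times its gene length was a whole multiple of 1 step (tolerance 0.001), which returned the reads. The step for 1 read over 1 kilobase was 0.0311 to 0.0993 RPKM, which sets the precision of low values.

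The test was limma 3.58.1 (R 4.3.3) with a variance trend on log2(RPKM + 1), two-sided, over genes with at least 1 RPKM in at least 3 libraries. It was run on simulated counts with changes planted in few genes and no length, GC or scale bias. That setting differs from these data, so the run does not vouch for the calls here. Values in every library are given for the 6 genes of a role with the largest change (all in a role of 5 or fewer) and, outside that rule, for Hexa. The correction subtracted natural splines (5 degrees of freedom) of log2 length and GC content from each library's deviations. Alternatives were that correction, a replicate block, both together, rescaling to summed reads, upper-quartile scaling, limma-voom on recovered reads, a pseudocount of 0.1, no filter, mean RPKM at least 5, no trend and leaving out each library. The members, the lists and the substrate classes were chosen with earlier results of these data known. Promoters are RefSeq windows. P-values measure the spread between these libraries, part of which may be technical.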

Additional observations from a re-analysis of the deposited data

How the results depend on the processing

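Of 28 called lysosomal genes, 17 kept call and direction under each of the 16 alternatives that gave them a value. Where genes needed a mean of 5 RPKM, 3477 of 5951 were called (1405 higher, 2072 lower), against 5577 of 10097 (3014 higher, 2563 lower). On rescaling to summed reads 2 lysosomal genes were called lower, against 4, and the medians were 1.93 for hydrolases, 1.72 for membrane proteins and 1.40 for pump subunits. The membrane median was 0.56 after the length and GC correction, with or without the replicate block, and 0.82 to 1.18 on leaving out each library. The correction, alone and with the block, turned the sign of Atp6v1e1 (-0.24), Gusb (-0.31), Npc2 (-0.039), Mcoln1 (-0.75), Naglu (0.30) and Atp6v1g1 (0.31). Rescaling turned Naglu (0.45), Atp6v1g1 (0.55) and Cln3 (0.18), and limma-voom turned Hexa (-0.19). Leaving out 1 library gave -0.019 to 0.34 for Gusb and -0.32 to 2.09 for Hexa. The cause was not tested. With the replicate number as a block 5212 genes, 26 lysosomal genes higher (Atp6v0d1 among them, adjusted p = 0.0281) and 4 lower were called. Deviations of same-numbered libraries from their group means had r = -0.125, 0.0255 and -0.0848 over 10097 genes. Differently numbered pairs had r of -0.107 to 0.186. Whether equal numbers mark the same experiment is not stated, and so few pairs cannot decide it. Depth limits Atp6v0c (227 reads over all libraries) and, in other clones, Npc1 (141 reads).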

Other observations

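Hexa was unusual among all 19179 listed genes in how it varied inside 1 group, by limits set after its values were seen. With at most 3 reads in 1 library and at least 1000 in another of the same kind, 2 genes were found in the stem-labelled clones, Hexa (1 and 1568 reads) and the protease inhibitor gene Serpine2 (0 and 1245 reads), and 0 in the other clones. Replicate 1 was the lowest library for both.

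The lysosomal set took 0.570% to 0.773% of reads in genes in stem-labelled libraries and 0.228% to 0.258% in other libraries, a share that does not depend on the library total. On that scale of summed reads 60.0% of all tested genes were called higher. The median change there was 0.87 for all tested genes and 1.72 for the lysosomal genes. As deposited, the mean level was at least 5 RPKM for 39 of the 42 lysosomal genes in stem-labelled and for 31 in other clones. The matching counts over all genes are not given here.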
